A study of Mus musculus with 15 samples.

Results

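Annexins, S100 proteins and Ahnak are 10 genes, Anxa1, Anxa2, Anxa4, Anxa5, Anxa6, S100a4, S100a6, S100a10, S100a11 and Ahnak, taken by name from the 49492 genes of the count table. They were followed across 15 RNA-seq libraries of OT-II CD4 T cells, which carry a transgenic T cell receptor for an ovalbumin (OVA) peptide and the congenic mark CD45.1. The names were chosen by earlier results on the expression counts of these same libraries, but the comparison that led to them is not on record. Every value of the 10 genes below is therefore a description, and a call only says on which side of the threshold a gene lay.

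There were 5 groups of 3 libraries. Naive donor cells were moved into Batf3-/- or wild-type (WT, C57BL/6) recipients, which were CD45.2+. After 24 hours the recipients received 60 µg OVA with 30 µg papain, a protease used as a type 2 adjuvant, into the nose in 3 doses. On day 5, CD44 high donor cells of the mediastinal lymph node were sorted into Batf3-/- CD62L-, Batf3-/- CD62L+, WT CD62L- and WT CD62L+ groups. CD62L is the adhesion receptor for entry into lymph nodes. The fifth group was CD44 low CD62L+ naive OT-II cells from superficial lymph nodes and spleens of untreated mice, which had not been transferred. Batf3 is needed for type 1 conventional dendritic cells and was missing only in the recipients, so all sequenced cells were Batf3-sufficient donor cells. The ages of the mice, and whether a library came from 1 animal or a pool, are not given in the sources used here, so the spread between libraries may be partly technical.

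Annexins bind phospholipids of cell membranes when calcium is present, and take part in membrane repair, vesicle traffic and the link between membrane and actin. S100 proteins are small calcium sensors that act as dimers, and several of them bind the tail of a particular annexin. S100a10 with Anxa2 and S100a11 with Anxa1 are the classic pairs, and S100a10 differs from its relatives in no longer binding calcium. Ahnak is a giant scaffold protein that binds the complex of S100a10 and Anxa2, and in mouse T cells it supports calcium entry through voltage-type calcium channels. S100a4, S100a6, Anxa1 and Anxa2 are widely used as marks of effector and memory T cells.

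Of the 10 genes, 8 had entries in the RefSeq promoter table (GRCm38.p6). Anxa6 and S100a10 had none. The stretches upstream of the 5 genes that either changed most between primed and naive cells or differed most between the CD62L subsets are shown here, so that genes with like values can be set beside their sequence. Each runs 5′ to 3′ and stops before the gene's first annotated base. Capitals mark 2 motifs, the AP-1 element TGANTCA and the TATA box TATAAA, searched on both strands in the 250 bases before the RefSeq start.
S100a6, chr3:90612644-90612881, + strand: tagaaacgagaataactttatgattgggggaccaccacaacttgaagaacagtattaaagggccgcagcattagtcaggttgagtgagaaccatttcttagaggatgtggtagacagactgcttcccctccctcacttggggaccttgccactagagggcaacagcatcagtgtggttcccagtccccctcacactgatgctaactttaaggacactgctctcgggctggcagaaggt
S100a4, chr3:90603520-90603769, + strand: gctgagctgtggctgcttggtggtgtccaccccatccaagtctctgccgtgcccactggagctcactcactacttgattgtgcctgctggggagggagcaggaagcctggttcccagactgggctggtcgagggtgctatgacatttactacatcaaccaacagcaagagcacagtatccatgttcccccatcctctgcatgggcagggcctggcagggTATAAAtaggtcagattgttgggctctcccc
Anxa2, chr9:69453433-69453619, + strand: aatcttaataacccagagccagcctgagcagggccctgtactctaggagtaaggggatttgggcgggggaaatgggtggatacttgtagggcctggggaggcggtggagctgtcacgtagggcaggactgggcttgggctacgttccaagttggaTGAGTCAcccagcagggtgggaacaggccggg
Ahnak, chr19:8989034-8989283, + strand: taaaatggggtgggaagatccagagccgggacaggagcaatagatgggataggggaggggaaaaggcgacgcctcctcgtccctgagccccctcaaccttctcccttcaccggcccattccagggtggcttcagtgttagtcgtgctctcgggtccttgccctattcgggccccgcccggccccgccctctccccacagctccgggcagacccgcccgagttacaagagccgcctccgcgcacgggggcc
S100a11, chr3:93520246-93520487, + strand: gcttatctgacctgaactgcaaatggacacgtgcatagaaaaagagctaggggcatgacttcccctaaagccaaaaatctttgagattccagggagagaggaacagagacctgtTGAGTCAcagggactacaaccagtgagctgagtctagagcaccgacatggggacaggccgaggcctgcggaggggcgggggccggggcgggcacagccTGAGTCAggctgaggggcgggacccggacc
S100a11 held 2 AP-1 elements, beginning 136 and 38 bases before its start, and Anxa2 held 1 at 95 bases. The other genes with an entry held none. Of 32851 promoters of the same length in the table, 6.75% held the element. TATAAA began 31 bases before the start of S100a4 and 32 bases before that of Anxa1, and 12.4% of promoters held it. A TATAAA match 17 bases before the RefSeq start of Anxa2 is not in the stretch shown. The TATAAA matches of Anxa1 and Anxa2 lie within the genes as the count table annotates them. The GC box GGGCGG occurred 3 times each in S100a11, Anxa2 and Ahnak and in no other gene of the 10 with an entry, against 32.7% of promoters, and CACACCC, a core bound by KLF factors, once in Anxa5 (6.93% of promoters). Not all GC boxes of Anxa2 are in the stretch shown, and the rest lie within the gene as annotated. None of the 4 letter strings contains another, and a match describes the letters only.

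The genes lie on 5 chromosomes of mm10. S100a4 (chromosome 3, 90603771 to 90606045) and S100a6 (90612882 to 90624181) are close neighbours in the S100 gene cluster, with S100a5 between them. S100a11 (93520488 to 93526287) and S100a10 (93555080 to 93564643) form a second pair on the same chromosome, 2820 kb beyond S100a9 and 28.8 kb apart. Anxa5 is on chromosome 3 as well (36448923 to 36475894), Anxa2 on chromosome 9 (69453620 to 69491795), Anxa4 on chromosome 6 (86736840 to 86793584) and Anxa6 on chromosome 11 (54979108 to 55033445). Ahnak (8989284 to 9076919) and Anxa1 (20373428 to 20390944) share chromosome 19. All 10 are protein coding in GENCODE M21. S100a4 shares 302 of its 584 exonic bases with the gene model Gm42674 on the same strand, and their counts came to 8490 for S100a4 and 8796 for Gm42674 over the 15 libraries. In the third of the naive libraries they stood apart, with 24 counts for S100a4 and 66 for Gm42674. Gm42674 also shares 144 exonic bases with S100a3, which had 62 counts in that library and 13 and 6 in the first and second naive libraries. Reads in the shared bases cannot be assigned to S100a4 or Gm42674, and each S100a4 value below carries that limit. Overlaps with gene models on the opposite strand touched 98 bases of Anxa2 and 75 bases of Anxa4.

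Library totals ran from 38082967 counts in the third of the WT CD62L- libraries to 99380475 counts in the second WT CD62L+ library. The 8 T cell markers (Cd3e and Cd4 among them) summed to 17800 to 21200 CPM in primed and 14800 to 16000 CPM in naive libraries. CPM is the usual unit, read counts divided by the size of the scaled library. None of the 8 was absent from any group, and only Trbc2 averaged lower in primed groups (2590 to 2840 against 3200 CPM). In WT recipients the sum was 20000 to 21200 CPM in CD62L- against 18200 to 19800 CPM in CD62L+ libraries. Only Cd5 ran the other way there (377 against 437 CPM), and the Batf3-/- subsets overlapped in the sum. The part of these markers in the values below was not tested. Ribosomal RNA genes took 1.57 to 2.18% of counts in the libraries numbered 1 and 3.49 to 7.04% in all others. All 10 genes passed the filter on low counts, but 3 of them, Anxa1, S100a4 and S100a6, were below its level of 0.129 CPM in at least 1 naive library and passed through the primed groups. Counts over the 10 genes are therefore no support for a change against naive cells. The test was edgeR's quasi-likelihood test over all 19942 genes kept, with Benjamini-Hochberg adjustment and a threshold of 0.05, and "called" means past it.

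Per kb of exon length, summed over the annotated exons of a gene, the genes covered a wide range of levels. This length can differ from that of the main transcript, so ranks across genes depend on the annotation. In WT CD62L- cells S100a11 and S100a10 stood first with 415 ± 36 and 402 ± 21 CPM per kb (SD, n = 3), and 0.567% and 0.592% of all tested genes were higher. Anxa6 (125 ± 5.2) and Anxa5 (121 ± 13 CPM per kb) followed, then Anxa2 at 37.8 ± 4. S100a4 (19.9 ± 4), S100a6 (18.6 ± 2.6), Ahnak (5.41 ± 0.9), Anxa4 (2.29 ± 0.38) and Anxa1 (0.433 ± 0.32 CPM per kb) made up the lower end. The neighbours S100a11 and S100a10, Anxa6 and Anxa5, and S100a4 and S100a6 did not differ beyond their spread. S100a10 led in Batf3-/- CD62L-, Batf3-/- CD62L+ and WT CD62L+ cells, with 335 ± 10, 295 ± 9.2 and 354 ± 34 CPM per kb. In naive cells Anxa6 (146 ± 5.2) and S100a10 (135 ± 9.9 CPM per kb) were first, and S100a6 (0.118 ± 0.07) and Anxa1 (0.0911 ± 0.08 CPM per kb) last, with 86.2% and 88.2% of tested genes higher.

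**Figure D1:**
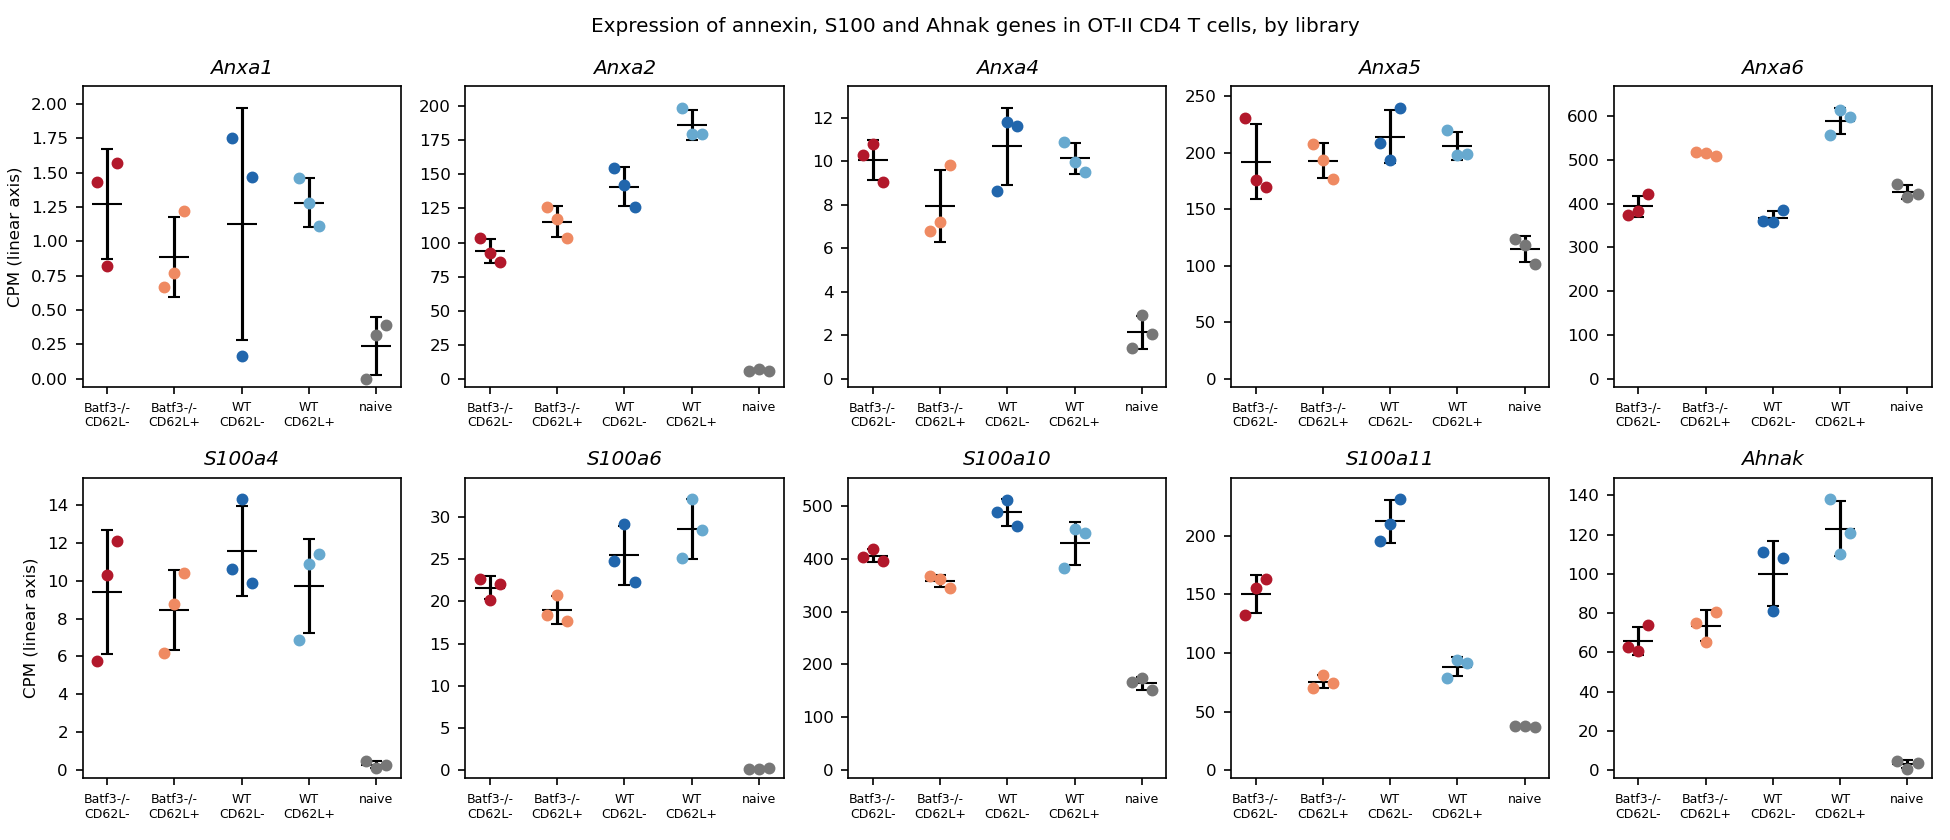
CPM (linear axes, one per gene) of the 10 genes in each library, with the 5 groups along the x axis. Points are single libraries, the bar is the mean and the whisker the SD of 3 libraries. S100a11 stands higher in both CD62L- groups than in the CD62L+ groups, Anxa6 stands lower, and Anxa2, S100a4, S100a6 and Ahnak are close to 0 in naive cells.

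The first comparison asked how primed cells differed from naive OT-II cells. Anxa2, Anxa4, Anxa5, S100a4, S100a6, S100a10, S100a11 and Ahnak, 8 of the 10 genes, were called higher in all 4 primed groups, where 11.9% of tested genes were (16.5%, 16.9%, 16.9% and 15.8% in Batf3-/- CD62L-, Batf3-/- CD62L+, WT CD62L- and WT CD62L+ cells taken singly). S100a6, S100a4, Ahnak and Anxa2 differed most. Anxa1 was not called in any of the 4 groups, and Anxa6 alone was called in both directions. Priming, transfer, the host and the sort cannot be told apart here, because naive cells were neither transferred nor taken from the mediastinal node. In sorted bulk cells, fewer cells with a transcript and less transcript per cell cannot be told apart either.

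Among the S100 genes, S100a6, whose product binds annexins and the ubiquitin ligase adaptor Cacybp, had the widest gap. It reached 22.7, 20.1 and 22.1 CPM in Batf3-/- CD62L-, 18.4, 20.8 and 17.7 in Batf3-/- CD62L+, 24.8, 29.2 and 22.3 in WT CD62L- and 25.1, 32.1 and 28.5 CPM in WT CD62L+ libraries. In naive libraries it had 0.115, 0.0983 and 0.271 CPM, that is 12, 8 and 22 counts. No primed library came near the naive ones, and the log2 fold changes were 7.08 (SE 0.29), 6.88 (SE 0.29), 7.31 (SE 0.3) and 7.48 (SE 0.3) in the same order of groups.

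S100a4, which binds non-muscle myosin and acts on cell movement, had 5.76, 10.3 and 12.1 CPM in Batf3-/- CD62L-, 6.2, 8.75 and 10.4 in Batf3-/- CD62L+, 10.6, 14.3 and 9.86 in WT CD62L- and 6.87, 10.9 and 11.4 CPM in WT CD62L+ libraries. The naive libraries had 0.478, 0.123 and 0.295 CPM. All primed libraries lay above all naive ones, while the primed groups overlapped each other. Its log2 fold changes were 4.94, 4.79, 5.25 and 5.00, with SE of 0.45 to 0.46. S100a10 started from a higher naive level, 164 ± 12 CPM, and averaged 406 ± 12 in Batf3-/- CD62L-, 358 ± 11 in Batf3-/- CD62L+, 488 ± 25 in WT CD62L- and 429 ± 41 CPM in WT CD62L+ cells, between 2.18-fold and 2.97-fold higher.

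Of the annexins, Anxa2 changed most. It had 103, 92.5 and 85.5 CPM in Batf3-/- CD62L-, 126, 117 and 103 in Batf3-/- CD62L+, 155, 142 and 126 in WT CD62L- and 199, 180 and 180 CPM in WT CD62L+ libraries, against 5.97, 6.9 and 5.54 CPM in naive libraries. Every primed library was far above the naive range, and the folds were 15.3, 18.8, 23 and 30.3. Anxa4, a membrane-binding annexin best known from epithelia, averaged 10 ± 0.9, 7.94 ± 1.7, 10.7 ± 1.8 and 10.1 ± 0.7 CPM in these groups and 2.13 ± 0.74 CPM in naive cells. Anxa5, which binds exposed phosphatidylserine, changed little by comparison, between 1.68-fold and 1.87-fold higher than the naive mean of 115 ± 11 CPM.

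Anxa1, the glucocorticoid-induced annexin that signals through formyl peptide receptors when secreted, was scarce throughout. Its values were 1.43, 0.818 and 1.57 CPM in Batf3-/- CD62L-, 0.671, 0.773 and 1.22 in Batf3-/- CD62L+, 1.75, 0.166 and 1.47 in WT CD62L- and 1.46, 1.28 and 1.11 CPM in WT CD62L+ libraries, against 0, 0.319 and 0.394 CPM in naive ones. The second WT CD62L- library, with 10 counts, fell within the naive range, and the other primed libraries lay above it. The log2 fold changes of 1.91 to 2.44 had SE of 1.01 to 1.03. DESeq2 called Anxa1 higher in Batf3-/- CD62L- cells (log2 fold change 2.42, with 34.5% of tested genes called) and WT CD62L+ cells (with 32.4% called), where edgeR did not. Limma's voom called it in the same groups (3.29 and 3.59, with 39.2% and 37.1% of tested genes called).

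Ahnak had 62.6, 60.7 and 73.9 CPM in Batf3-/- CD62L-, 75.1, 65.3 and 80.6 in Batf3-/- CD62L+, 111, 81 and 108 in WT CD62L- and 138, 110 and 121 CPM in WT CD62L+ libraries. The naive libraries had 4.66, 0.663 and 3.73 CPM, the second one standing low with 54 counts. The log2 fold changes were 4.44, 4.60, 5.04 and 5.34 with SE of 0.46 to 0.48. Limma's voom with library quality weights gave Ahnak 5.14, 5.30, 5.69 and 6.06, more than 1.5 times higher as folds. Over the 10 genes, the median log2 fold changes were 2.33, 1.90, 2.41 and 2.34 in the 4 groups, beside 0, 0, -0.08 and -0.01 over all genes tested. Calls in either direction made up 29.3%, 30.2%, 30.1% and 27.2% of tested genes, and 8, 9, 9 and 9 of the 10. Groups that did not overlap with naive cells were found for 9, 10, 9 and 10 of the 10 and for 45.2%, 49.4%, 45.2% and 46.3% of tested genes. Lower calls made up 12.8%, 13.3%, 13.2% and 11.4% of tested genes, and Anxa6 in WT CD62L- cells was the one lower call among the 10. The 4 comparisons share the naive libraries. The erythroid markers moved in the other direction, with summed levels of 9.4 to 101 CPM in primed and 574 to 680 CPM in naive libraries. The 5 plasma cell markers summed to 167 to 257 CPM in primed and 116 to 119 CPM in naive libraries. Xbp1 made up most of that sum, with group means of 147 to 176 CPM in primed and 98.9 CPM in naive cells. The 9 stromal and endothelial markers summed to 167 to 210 CPM in primed and 217 to 242 CPM in naive libraries. Pecam1 made up most of that sum, with group means of 180 to 197 CPM in primed and 230 CPM in naive cells. The 7 CD8 and NK markers summed to 33.5 to 52.1 CPM in primed and 54.7 to 64.3 CPM in naive libraries, but went both ways. Cd8b1 averaged 15.7 to 23.1 CPM in primed groups against 50.8 CPM in naive cells, and Klrb1c 7.56 to 25.9 against 0.137 CPM. The part of these markers in the values was not tested.

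**Figure D2:**
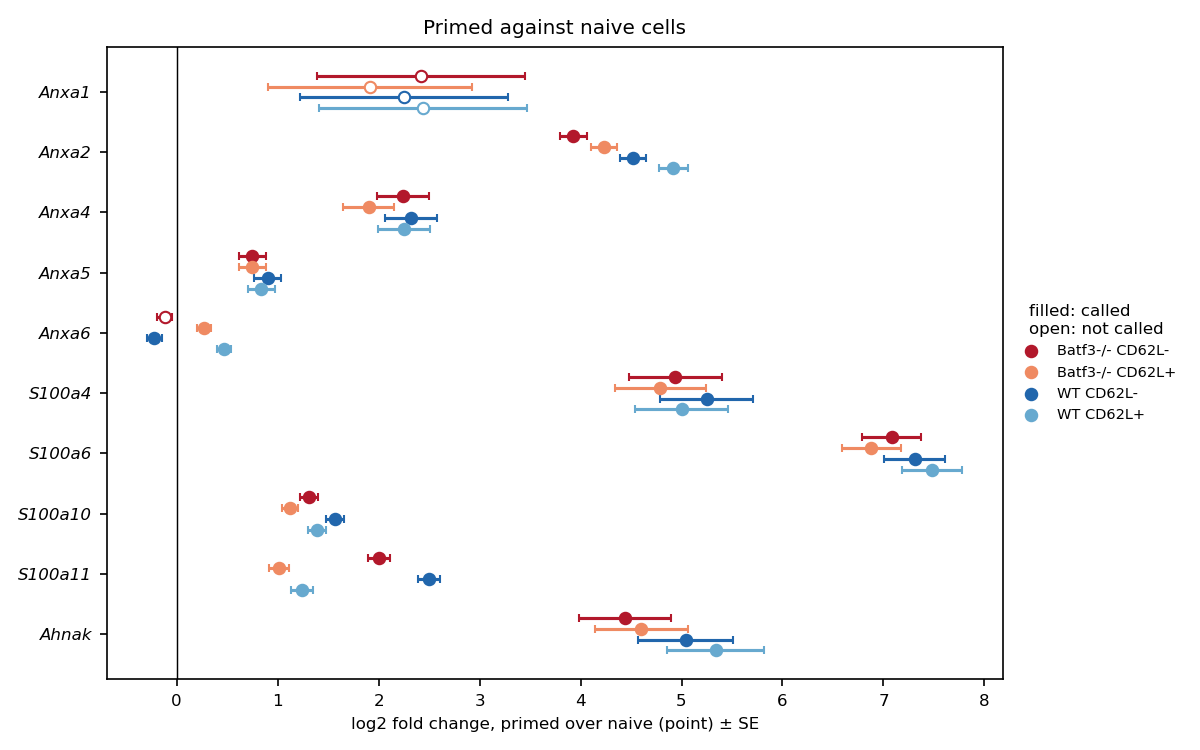
Log2 fold change of each gene in the 4 primed groups over naive cells (x axis, point ± SE from edgeR). Filled points were called and open ones were not. S100a6, S100a4, Ahnak and Anxa2 lie farthest to the right, Anxa1 has the widest errors, and Anxa6 lies on both sides of 0.

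The proportions of the S100a10 and Anxa2 transcripts, whose proteins form a complex, also differed. Protein was not measured, so these ratios do not describe the complex itself. Per summed exon length, S100a10 exceeded Anxa2 by 12, 13.9 and 14.2 times in Batf3-/- CD62L- libraries. The ratio was 8.96, 9.48 and 10.4 in Batf3-/- CD62L+ libraries. It was 9.69, 11.1 and 11.3 in WT CD62L- and 5.91, 7.81 and 7.69 in WT CD62L+ libraries. In naive libraries the ratio was 86.2, 77.7 and 83.8. It follows from the values above and was not tested. All primed libraries had a lower ratio than the naive ones, and within each recipient type the CD62L- libraries had a higher ratio than the CD62L+ libraries.

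The second comparison set CD62L- against CD62L+ cells of the same recipient type, 2 subsets of primed cells in the draining node. S100a11 was higher and Anxa6 lower in CD62L- cells of both recipient types, and no other gene of the 10 was called by edgeR. S100a11, the partner of Anxa1 that also restrains growth of human keratinocytes, had 132, 155 and 163 CPM in Batf3-/- CD62L- against 70.1, 81.1 and 74.5 CPM in Batf3-/- CD62L+ libraries. In WT recipients it had 195, 210 and 231 CPM in CD62L- against 79, 94.3 and 91.4 CPM in CD62L+ libraries. The subsets did not overlap in either recipient type. The difference was 1.99-fold (log2 1, SE 0.1) in Batf3-/- and 2.4-fold (log2 1.26, SE 0.11) in WT recipients. Naive cells lay below both subsets, at 37.7, 37.3 and 37.2 CPM.

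Anxa6, which is abundant in lymphocytes and organises cholesterol and actin at the membrane, ran the other way. It had 375, 384 and 422 CPM in Batf3-/- CD62L- against 517, 516 and 510 CPM in Batf3-/- CD62L+ libraries, and 361, 357 and 385 CPM in WT CD62L- against 557, 615 and 597 CPM in WT CD62L+ libraries. Again no library of one subset reached the other. The log2 fold changes were -0.38 (SE 0.07) in Batf3-/- and -0.68 (SE 0.07) in WT recipients. Naive cells, at 444, 415 and 421 CPM, lay between the WT subsets. Against naive cells Anxa6 was called higher in Batf3-/- CD62L+ (log2 0.27, SE 0.07) and WT CD62L+ cells (0.47, SE 0.07), was called lower in WT CD62L- cells (-0.22, SE 0.07), and was not called in Batf3-/- CD62L- cells (-0.12, SE 0.07).

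These Anxa6 calls were not equally firm. In Batf3-/- recipients the subset call was lost without the first or second CD62L- library, without any single CD62L+ library and in a fit of these 6 libraries only (log2 fold changes between -0.45 and -0.35 over the alternatives). The lower call in WT CD62L- against naive cells was lost without any single naive library, without the first or second WT CD62L- library, without a filter and in a fit of those 6 libraries only (-0.25 to -0.16). The S100a11 call and the Anxa6 call between WT subsets held in every alternative run.

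The remaining genes differed less between subsets. Anxa2 was lower in every WT CD62L- than in every WT CD62L+ library but was not called (log2 -0.40, SE 0.12), and DESeq2, limma's voom and the fit with a replicate block called it (4.06%, 2.37% and 2.65% of tested genes called). In Batf3-/- recipients its subsets overlapped (log2 -0.30, SE 0.12). S100a10 was higher in every CD62L- library of both recipient types by a small margin that was not called (log2 0.18, SE 0.08 in each). Anxa1, Anxa4, Anxa5, S100a4, S100a6 and Ahnak overlapped between subsets, with log2 differences between -0.16 and 0.52 in Batf3-/- and between -0.30 and 0.25 in WT recipients. The subset test called 2 of the 10 genes in each recipient type, with 0.501% of tested genes called in Batf3-/- and 1.22% in WT recipients. Higher calls were 0.286% and lower calls 0.216% of tested genes in Batf3-/- recipients, and 0.672% and 0.552% in WT recipients. Over the 10 genes the median log2 difference was 0.17 in Batf3-/- and -0.05 in WT recipients, against 0.01 and -0.01 over all genes. Groups that do not overlap were found for 3 of the 10 in Batf3-/- (13.4% of tested genes) and for 4 in WT recipients (17.8%).

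Marker sums of other cells differed between the subsets. The 14 B cell markers summed to 33.1 to 52.5 CPM in Batf3-/- CD62L- against 158 to 209 CPM in Batf3-/- CD62L+ libraries, and to 18.7 to 21.6 CPM in WT CD62L- against 148 to 185 CPM in WT CD62L+ libraries. None of the 14 was at 0 in any group. Naive libraries had 52.6 to 64 CPM. Plasma cell markers summed to 167 to 195 CPM in Batf3-/- CD62L- against 244 to 257 CPM in Batf3-/- CD62L+ libraries, and to 179 to 214 CPM in WT CD62L- against 220 to 234 CPM in WT CD62L+ libraries. Xbp1 and Igkc made up most of these sums. Igkc averaged 31.5 against 72.4 CPM in Batf3-/- and 11.9 against 45.4 CPM in WT recipients. Sdc1 of the same list ran the other way (1.71 against 0.854 CPM in Batf3-/- and 2.75 against 0.098 CPM in WT recipients). CD8 and NK markers summed to 43.6 to 52.1 CPM in Batf3-/- CD62L- against 34.8 to 37.7 CPM in Batf3-/- CD62L+ libraries. In WT recipients they summed to 38.7 to 47.3 CPM in CD62L- against 33.5 to 38.7 CPM in CD62L+ libraries. Their members went both ways. Klrb1c averaged 25.9 against 12.6 CPM in Batf3-/- and 23.9 against 7.56 CPM in WT recipients. Cd8b1 averaged 16.9 against 19.6 CPM in Batf3-/- and 15.7 against 23.1 CPM in WT recipients. The mitochondrial share of counts was 1.65 to 2.2% in Batf3-/- CD62L- against 0.764 to 1.58% in Batf3-/- CD62L+ libraries, and 1.38 to 2.37% in WT CD62L- against 0.813 to 1.16% in WT CD62L+ libraries. The part of these in the S100a11 and Anxa6 differences was not tested.

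**Figure D3:**
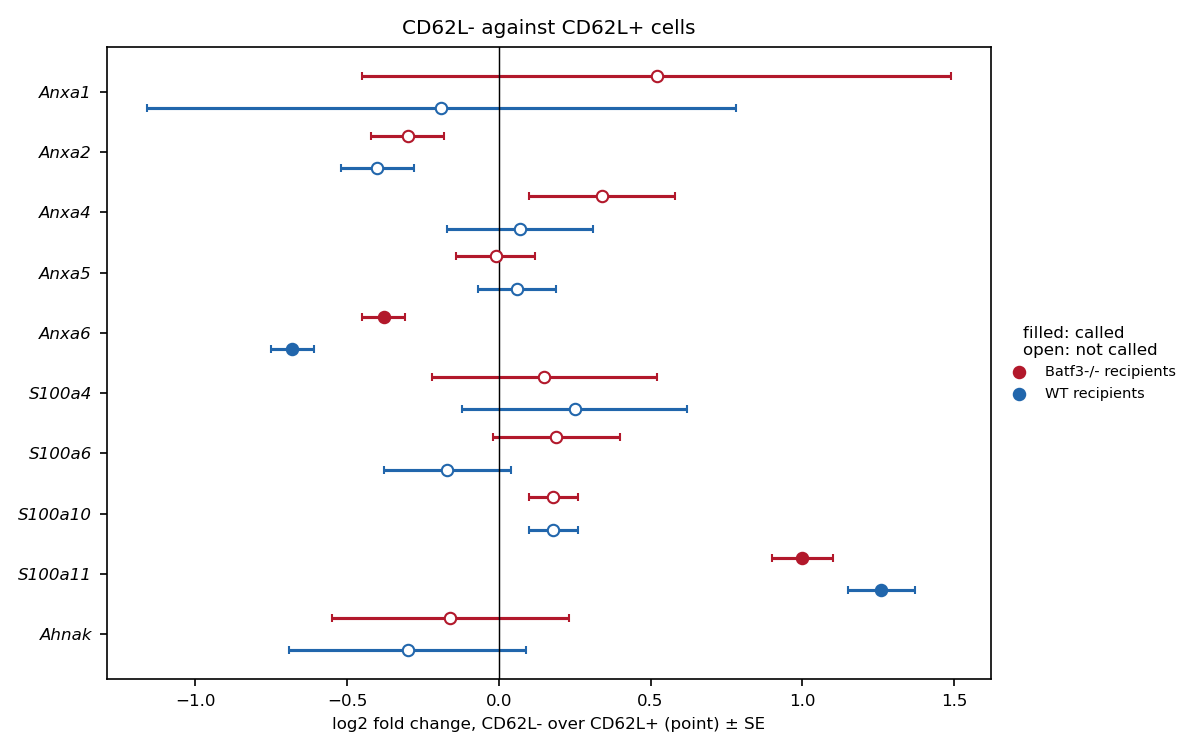
Log2 fold change of CD62L- over CD62L+ cells (x axis, point ± SE from edgeR) for each gene in Batf3-/- and in WT recipients. Filled points were called, which are S100a11 on the right and Anxa6 on the left in both recipient types.

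The third comparison asked whether donor cells differed between Batf3-/- and WT recipients. None of the 10 genes was called in either subset by edgeR, which called 0.0501% of tested genes in CD62L- and 0.00501% in CD62L+ cells. The calls in CD62L- cells were split evenly, 0.0251% higher and 0.0251% lower. At an unadjusted p under 0.05 there were 3 of the 10 in CD62L- and 5 in CD62L+ cells, beside 10.5% and 5.78% of tested genes. DESeq2 called Anxa2, S100a10 and S100a11 lower in CD62L- cells (2.13% of tested genes called) and Anxa2 and S100a6 lower in CD62L+ cells (0.727%). Limma's voom called Anxa2 and S100a11 in CD62L- (0.396%) and Anxa2 in CD62L+ cells (0.351%). A fit with a replicate block called the same genes as voom (0.371% and 0.16% of tested genes called).

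Anxa2 and Ahnak lay lower in Batf3-/- recipients in both subsets. Anxa2 had 85.5 to 103 CPM in Batf3-/- CD62L- libraries, below the 126 to 155 CPM of WT CD62L- libraries (log2 -0.59, SE 0.12). Its 103 to 126 CPM in Batf3-/- CD62L+ libraries lay below the 180 to 199 CPM of WT CD62L+ libraries (log2 -0.69, SE 0.12). The recipient types did not overlap in either subset. Ahnak showed the same order, with 60.7 to 73.9 CPM in Batf3-/- CD62L- against 81 to 111 CPM in WT CD62L- libraries and 65.3 to 80.6 CPM in Batf3-/- CD62L+ against 110 to 138 CPM in WT CD62L+ libraries. Its log2 values of -0.61 and -0.74 had an SE of 0.39 each. S100a10 lay lower in every library of Batf3-/- recipients in both subsets (log2 -0.27 and -0.26, SE 0.08 each).

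S100a11 was lower without overlap in CD62L- cells (132 to 163 CPM in Batf3-/- and 195 to 231 CPM in WT recipients, log2 -0.50, SE 0.1) and overlapped in CD62L+ cells (log2 -0.23, SE 0.1). S100a6 and Anxa6 lay lower without overlap in CD62L+ cells (log2 -0.59, SE 0.21 and -0.20, SE 0.07) and overlapped in CD62L- cells. Anxa1, Anxa4, Anxa5 and S100a4 overlapped in both subsets. In all, 4 genes in CD62L- and 5 genes in CD62L+ cells had libraries of Batf3-/- recipients wholly below those of WT recipients, and none lay wholly above. Groups without overlap, in either direction, were seen for 14.1% and 13.1% of tested genes. The median log2 difference over the 10 genes was -0.25 in CD62L- and -0.31 in CD62L+ cells, against 0.01 and 0 over all genes tested. Depth went with the recipient type in CD62L- cells, with totals of 77620291 to 89129489 in Batf3-/- and 38082967 to 64938211 in WT libraries. B cell markers summed to 33.1 to 52.5 CPM in Batf3-/- CD62L- against 18.7 to 21.6 CPM in WT CD62L- libraries. In CD62L+ cells, erythroid markers summed to 9.87 to 36.5 CPM in Batf3-/- against 60 to 67.5 CPM in WT libraries, and plasma cell markers to 244 to 257 CPM in Batf3-/- against 220 to 234 CPM in WT libraries. Within the plasma cell sum of CD62L+ cells, Igkc averaged 72.4 CPM in Batf3-/- against 45.4 CPM in WT recipients, and Xbp1 168 against 176 CPM. The part of depth and of these markers was not tested.

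The subset difference itself was compared between recipient types as an interaction. No gene of the 10 was called by edgeR, DESeq2 or limma's voom, 1 had an unadjusted edgeR p under 0.05 (Anxa6, log2 0.30, SE 0.1, beside 4.31% of tested genes), and edgeR called 0% of all tested genes, DESeq2 0.181%, and voom and the block fit 0.00501% each. The interaction was -0.27 (SE 0.15) for S100a11 and between -0.10 and 0.71 for the other genes besides Anxa6.

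**Figure D4:**
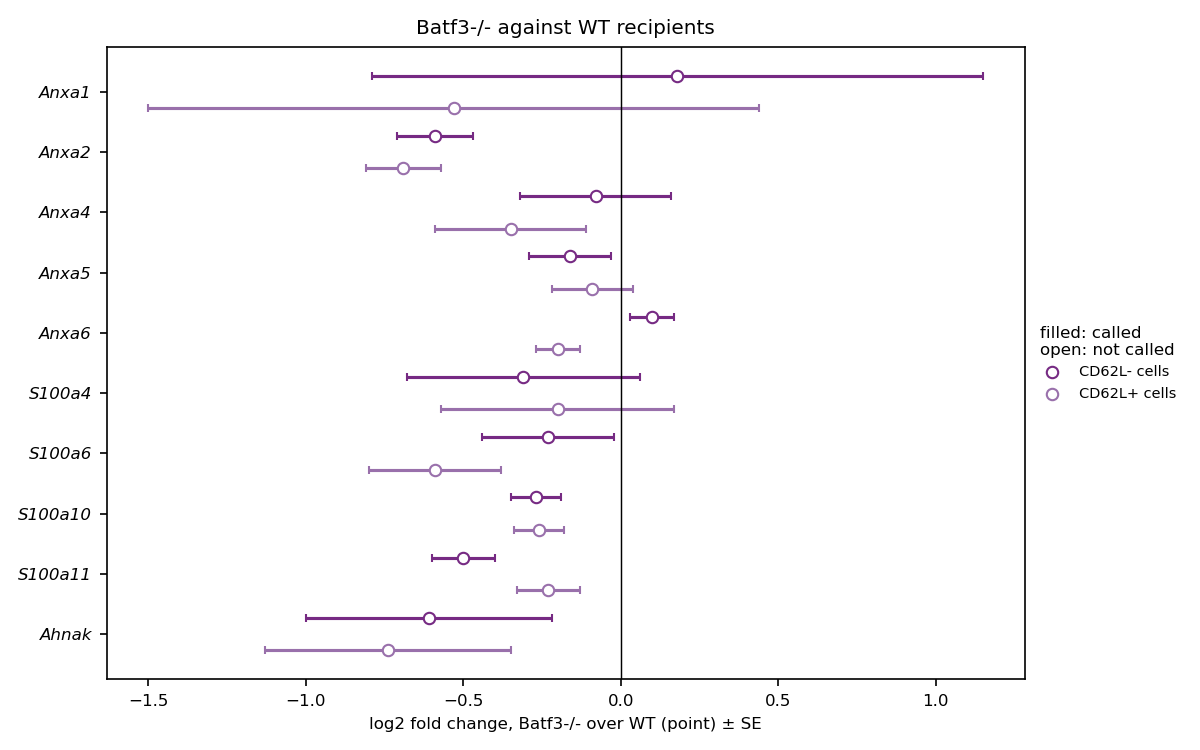
Log2 fold change of Batf3-/- over WT recipients (x axis, point ± SE from edgeR) for each gene in CD62L- and CD62L+ cells. All points are open because no gene was called, and all but Anxa1 and Anxa6 in CD62L- cells lie left of 0.

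The relatives that were not among the 10 were taken by family name. Earlier results of these data were known by then, so their calls and adjusted p-values are descriptions. The list held 20 other annexin, S100 and Ahnak genes, of which 10 passed the filter. Anxa3, S100a1 and S100a13 were called higher in all 4 primed groups, where 11.9% of tested genes were. None was called lower, and none was called between subsets or recipients. S100a13, a small secreted S100 protein, averaged 69.8 ± 9.2, 71.4 ± 2.6, 68.8 ± 8.9 and 73.6 ± 5.5 CPM in Batf3-/- CD62L-, Batf3-/- CD62L+, WT CD62L- and WT CD62L+ cells against 36.7 ± 4.7 CPM in naive cells (edgeR adjusted p between 4.68e-05 and 0.000107). Anxa3, a relative best known from neutrophils, was without a single count in the naive libraries. It averaged 1.81 ± 1.2 CPM in Batf3-/- CD62L-, 1.03 ± 0.33 in Batf3-/- CD62L+, 2.36 ± 0.27 in WT CD62L- and 0.596 ± 0.37 CPM in WT CD62L+ cells. The first Batf3-/- CD62L- library stood high, with 3.19 CPM against 1.12 and 1.13 CPM in the other two. Anxa3 passed the filter through the primed groups, so its calls are no support for a change. S100a1, a calcium sensor best known from heart muscle, reached 1.06 ± 0.56 to 2 ± 0.5 CPM against 0.294 ± 0.056 CPM in naive cells. Anxa7 and Anxa11 were expressed in every group (37.5 to 53.1 CPM on average) and were not called in any comparison.

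S100a8 and S100a9, the calprotectin subunits of neutrophils and monocytes, had no counts in Batf3-/- CD62L+, WT CD62L- and WT CD62L+ libraries. They had counts in 2 Batf3-/- CD62L- libraries (44 and 74 for S100a8) and in naive libraries (6 to 70 for S100a8). The 10 neutrophil markers, these 2 among them, summed to at most 1.74 CPM in any library. The 12 myeloid and dendritic markers summed to 63.6 to 80.6 CPM in primed and to 65 to 75.3 CPM in naive libraries, with Clec9a at 0 in all groups. Anxa8, Anxa10, Anxa13 and Ahnak2 had no counts in any library.

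**Figure D5:**
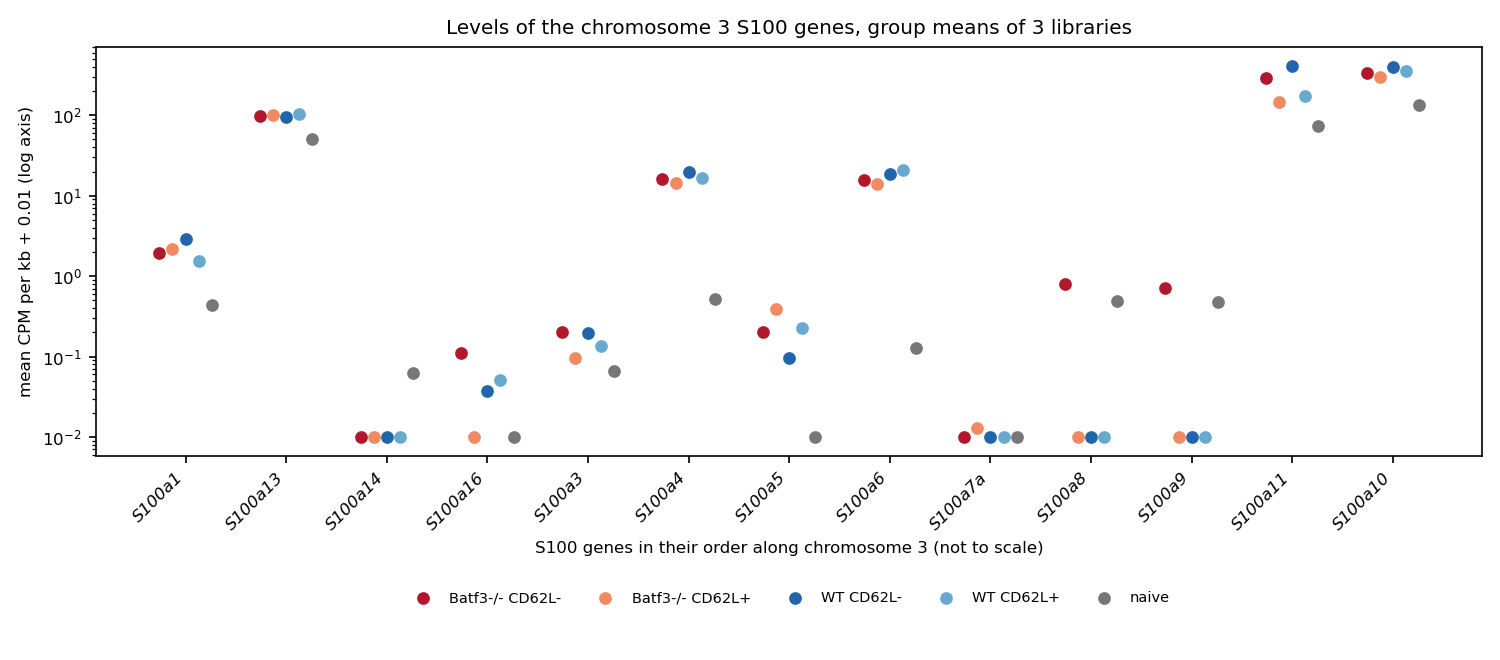
Mean level per summed exon length of 13 S100 genes in their order along chromosome 3, with 1 point per group of 3 libraries. The y axis is mean CPM per kb plus 0.01 (log axis). S100a13, S100a11 and S100a10 are the highest genes, and S100a4 and S100a6 lie between 13.9 and 20.9 CPM per kb in the primed groups and at 0.511 and 0.118 CPM per kb in naive cells.

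Partners of these proteins, membrane repair genes and cytoskeleton genes were followed by lists made for this purpose. The lists were made with earlier results of these data known, so their calls and adjusted p-values are descriptions. Of 20 genes for binding partners and receptors, 14 were tested, and 3, 2, 3 and 4 were higher and 2, 2, 1 and 0 lower than naive in Batf3-/- CD62L-, Batf3-/- CD62L+, WT CD62L- and WT CD62L+ cells. Between 15.8% and 16.9% of all tested genes were higher and between 11.4% and 13.3% lower. Cacna1s, the pore subunit of a voltage-gated calcium channel, averaged 8.24 ± 0.77, 8.29 ± 3.2, 8.06 ± 1 and 8.33 ± 2.1 CPM in these groups against 0.0902 ± 0.16 CPM in naive cells, a naive level below that of the filter, which it passed through the primed groups. Prkca, protein kinase C alpha, was between 4.94-fold and 6.2-fold higher. Myh10 was lower in Batf3-/- CD62L- cells (0.525 ± 0.11 against 3.47 ± 0.62 CPM) and Batf3-/- CD62L+ cells (0.613 ± 0.12 CPM). Plaur, the urokinase receptor, was lower in Batf3-/- CD62L- cells (1.05 ± 1.1 against 7.88 ± 3 CPM, adjusted p = 0.00685) and WT CD62L- cells (0.474 ± 0.38 CPM, adjusted p = 0.00101). No gene of this list was called between subsets or recipients.

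Of 20 membrane repair genes 17 were tested, and 3, 4, 3 and 3 were higher and 2, 2, 1 and 2 lower than naive in the same order of groups, shares near those of all tested genes given above. Capns1, the small subunit of the calpain proteases, averaged 46.6 ± 7.1, 39.3 ± 6.9, 47.3 ± 9.4 and 39.2 ± 6.5 CPM against 18.3 ± 3.4 CPM in naive cells. Ehd1, which shapes recycling membranes, was between 3.25-fold and 3.8-fold higher, and Vps4a, the ATPase of the ESCRT machinery, between 1.25-fold and 1.45-fold lower. None of the 17 was called between subsets or recipients.

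A list of 20 cytoskeleton and effector genes, all tested, had 7, 7, 8 and 8 genes higher and 6, 5, 6 and 4 lower than naive, beside 16.5%, 16.9%, 16.9% and 15.8% of tested genes higher and 12.8%, 13.3%, 13.2% and 11.4% lower. Lgals1, which encodes galectin-1, was between 3.78-fold and 4.62-fold higher, while Emp3, a membrane protein of migrating cells, was between 2.28-fold and 4-fold lower. Between the subsets of WT recipients, CD62L- cells had 6 of the 20 lower and none higher, where 0.552% of tested genes were lower and 0.672% higher. Capg, an actin-capping protein, had 132 ± 17 against 277 ± 10 CPM (log2 -1.07, SE 0.12, edgeR adjusted p = 0.000253) and Tagln2, an actin-binding protein, 90.6 ± 12 against 139 ± 5.8 CPM (adjusted p = 0.00493). In Batf3-/- recipients none of the 20 was called by edgeR. The list median was -0.16 there and -0.32 in WT recipients, against 0.01 and -0.01 over all genes.

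The genes also differed in which others they resembled. Likeness was the root mean square difference of log2 CPM, centred on each gene's mean, over the 15 libraries, which share their depth and scaling, among 8786 or 8787 candidate genes. S100a11 was closest to Bcl6, the transcription factor of follicular helper cells (0.21), then to Slc26a11 and Mafg. S100a10 was closest to the integrin chain Itgal and the channel Trpv2 (0.11 each). Anxa6 was closest to the complement regulator Cd55 (0.13), and Anxa2 to Decr1, the costimulatory receptor Icos and Tbc1d4 (0.35 to 0.38). S100a4 was nearest to the chemokine receptor Ccr8 (0.35) and Ahnak to the cell cycle genes Cdkn3 and Top2a (0.37 and 0.40). Among the 10 themselves the closest pairs were Anxa5 with S100a10 (0.28), Anxa5 with Anxa6 (0.41) and Anxa4 with S100a10 (0.43). This measure grows with the size of a change, so genes that change little lie close whatever the direction. In WT CD62L- against naive cells, for example, Anxa5 had a log2 fold change of 0.9 and Anxa6 of -0.22. The binding partners S100a10 and Anxa2 lay farther apart (1.26), though both were called higher than naive in all 4 primed groups.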

How the data were processed

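The authors deposited 1 table of raw read counts per gene with exon positions and exon lengths, without normalization. The submitters' processing notes name STAR 2.7.3a, Trimmomatic 0.36, FastQC and, from Subread 1.6.5, featureCounts, and give mm10 as the build. The annotation release and strand setting are not given in the sources used here. RNA was amplified as whole-transcriptome cDNA before library preparation, per the labels' protocols, so counts are not numbers of molecules.

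Titles gave each library's group and its replicate number. Genes were kept with filterByExpr (minimum count 10), scaled by TMM and tested in 1 model of all 15 libraries with edgeR 4.0.16 (R 4.3.3, quasi-likelihood, robust), with p-values adjusted over 19942 genes. CPM uses the scaled library size, and CPM per kb divides it by the summed exon length of the gene. The SE is the log2 fold change over the root of F. The script was tested on simulated data for the comparison of the WT subsets only, and the outcome is not reported here. Pairs of libraries of a group differed by more than counting error allows (chi-square of 42.4 to 642 for each degree of freedom). Alternatives included DESeq2 1.42.0 and limma 3.58.1.

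The members, the relatives, the partner lists and the naming rule were chosen with earlier results of these data known. The rule named all 10 genes, any relative past the filter, the 2 called genes of smallest adjusted p per list and direction, and the 3 most alike genes. Of the genes it named from the lists and by likeness, only some are shown. S100a2, also in the table, was not on the list of relatives. Promoter sequences are RefSeq's (GRCm38.p6). Cell type marker lists were summed per library.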

Additional observations from a re-analysis of the deposited data

Results flagged for a closer look

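Anxa6 moved in opposite directions from the naive level in the subsets of WT recipients. It averaged 367 ± 15 CPM in WT CD62L- and 590 ± 30 CPM in WT CD62L+ cells, against 427 ± 15 CPM in naive cells (SD, n = 3 each). All WT CD62L- libraries lay below and all WT CD62L+ libraries above the naive ones. The difference between the subsets was called (log2 -0.68, SE 0.07), but the call of the CD62L- group against naive cells was lost in 7 of 14 alternatives.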

How the results depend on the processing

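Over 90 pairs of gene and comparison, 1320 values were recomputed under the alternatives. Of these, 1289 kept their direction or stayed uncalled, 13 lost a call, 18 gained one and 0 reversed a called direction. All lost calls were Anxa6, in WT CD62L- against naive cells (7) and between the subsets of Batf3-/- recipients (6). The number of the 10 genes called between subsets of Batf3-/- recipients was 2 in the model of all libraries, fell to 1 when only the 6 compared libraries were fitted, and ranged from 1 to 2 when single libraries were left out. Between Batf3-/- and WT recipients it was 0 in both subsets. In CD62L- cells it was 2 with the replicate block, 3 with DESeq2 and 2 with limma's voom, and in CD62L+ cells 1, 2 and 1. The cause was not tested. The replicate numbers were not taken as pairing the libraries. Correlations of deviations ran from 0.016 to 0.111 in 30 same-numbered pairs, with 4 over 0.1. Pairs of unlike number were not set beside them, so these values cannot decide whether libraries of a number belong together. The libraries numbered 1 differed from all others in ribosomal RNA (1.57 to 2.18% against 3.49 to 7.04% of counts). The main model ignores any such link. With the replicate block, 3 genes were called between WT subsets against 2 without it. Without the third libraries of both CD62L- groups, the subset counts stayed at 2 in each recipient type. Other size factors and filters changed no count by more than 1. Over all genes, 244 were called between WT subsets, against 529 with the replicate block, 810 with DESeq2, 473 with voom, 121 from the compared libraries only and 121 to 265 with single libraries left out. Between Batf3-/- subsets 100 were called, against 197, 426, 334, 26 and 32 to 51 in the same order, and 55 without the third libraries. Between recipients, 10 were called in CD62L- cells, against 74, 424, 79, 0 and 4 to 31, and 1 in CD62L+ cells, against 32, 145, 70, 0 and 0 to 1, with 5 under either other filter and 2 without the third libraries. For the interaction 0 were called, against 1, 36, 1, 0 and 0 to 2, with 1 without a filter and 2 without the third libraries. Depth limits Anxa1, with 0 to 134 counts per library, and the naive values of S100a4 and S100a6, with 8 to 50 counts.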
